A study of Aspergillus nidulans with 12 samples.

Results

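Transcript levels of 6 genes of sterol synthesis were followed in the filamentous fungus Aspergillus nidulans, chosen by their gene IDs from the 7729 genes that each deposited table lists. They are AN3817 (related to HMG1 of yeast), AN1901 (cyp51A), AN8283 (cyp51B), AN2042 (related to NCP1), and AN8907 and AN6973 (both related to ERG25). All 6 were listed in both tables. They were chosen with earlier results of these data known.

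RNA-Seq was performed on rRNA-depleted RNA of mycelium grown in liquid minimal medium, with 3 libraries for each of 4 strains and 12 libraries in all. The strain kaeA19 (proA6, kaeA19, with pabaA and biA alleles) was set against its kaeA+ control wt4 (proA6, pabaA9, biA1). The strain kaeA25 (proA6, kaeA25, adF9, yA2, phenA2) was set against its kaeA+ control wt5 (proA6, adF9, yA2, phenA2). Every strain thus carries proA6, while adF9, yA2 and phenA2 are found only in kaeA25 and wt5. For kaeA19 the study's methods name pabaA12 and biA1, while the labels name different pabaA and biA alleles. By the methods the pair differs at pabaA, so a marker difference from wt4 is possible. Both kaeA alleles are short in-frame deletions, and the mutants are described as growing much more slowly than the wild type, so a level that differed with growth could not be told apart from one that differed with the allele. KaeA is a subunit of KEOPS, a conserved complex that modifies tRNA.

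Ergosterol is the main sterol of fungal membranes. It is made from acetyl-CoA through mevalonate, farnesyl diphosphate and squalene, and the first sterol of the path, lanosterol, is then trimmed and desaturated in a series of steps. Several of the late steps use molecular oxygen and iron enzymes, and the demethylase Cyp51 is the target of the azole antifungals.

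The value used for each gene was the authors' mean, a signal of normalized fragments averaged over the mutant and control libraries of a comparison. Each gene therefore had 1 value for the kaeA19 and wt4 libraries together and 1 value for the kaeA25 and wt5 libraries together, with no value per library. The tables give no SD and no n for a mean, so no difference given here has a test or could be set against the spread between replicates, and a mean alone does not say which strain of a pair carried a level. The authors' own comparison of mutant and control, in other columns of the tables, was not used here. Depth per library was not used either, since the study's alignment summary numbers its libraries without naming their strains. Some libraries in that summary have far fewer aligned pairs than the others. The listed means summed to 22310307 in the kaeA19 and wt4 table and to 21992765 in the kaeA25 and wt5 table. The genes above 0 numbered 7464 and 7548 in these tables, and their median was 1003 and 949 normalized fragments.

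All 6 genes had a mean far above that of the median gene in both tables, and the ranks and means that follow are not divided by length. The gene of HMG-CoA reductase, AN3817 (hmg1 in RefSeq), whose enzyme makes mevalonate and is the main control point of the path, had a mean of 8118 in the kaeA19 and wt4 libraries and 7452 in the kaeA25 and wt5 libraries. These are rank 513 of 7464 and rank 556 of 7548 genes. Its level was thus nearly equal in both tables.

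The Cyp51 enzymes remove the 14-alpha methyl group of the sterol ring, and A. nidulans has a pair of genes for them. The cyp51A gene AN1901 had a mean of 8020 normalized fragments in the kaeA19 and wt4 libraries and 3858 in the kaeA25 and wt5 libraries. Its rank was 520 in the kaeA19 and wt4 table and 1150 in the kaeA25 and wt5 table, the widest gap in rank among the 6 genes. The cyp51B gene AN8283 had a mean of 6810 in the kaeA19 and wt4 libraries and 5135 in the kaeA25 and wt5 libraries, at ranks 634 and 853 of these tables. The NADPH-cytochrome P450 reductase that NCP1 encodes in yeast passes electrons to Cyp51. Its relative AN2042 had a mean of 11721 in the kaeA19 and wt4 libraries and 7422 in the kaeA25 and wt5 libraries, at ranks 316 and 561.

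Enzymes of the ERG25 kind oxidize the methyl groups at C-4 of the sterol. Of the related genes followed here, AN6973 had by far the highest mean of the 6, at 30844 in the kaeA19 and wt4 libraries and 18508 in the kaeA25 and wt5 libraries. It ranked 77 and 168 in these tables, and held 0.138% and 0.0842% of their summed signal. AN8907 had a mean of 9119 in the kaeA19 and wt4 libraries and 5619 in the kaeA25 and wt5 libraries, at ranks 440 and 764. Summed, the 6 genes held 0.335% of the signal in the kaeA19 and wt4 table and 0.218% in the kaeA25 and wt5 table.

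**Figure D1:**
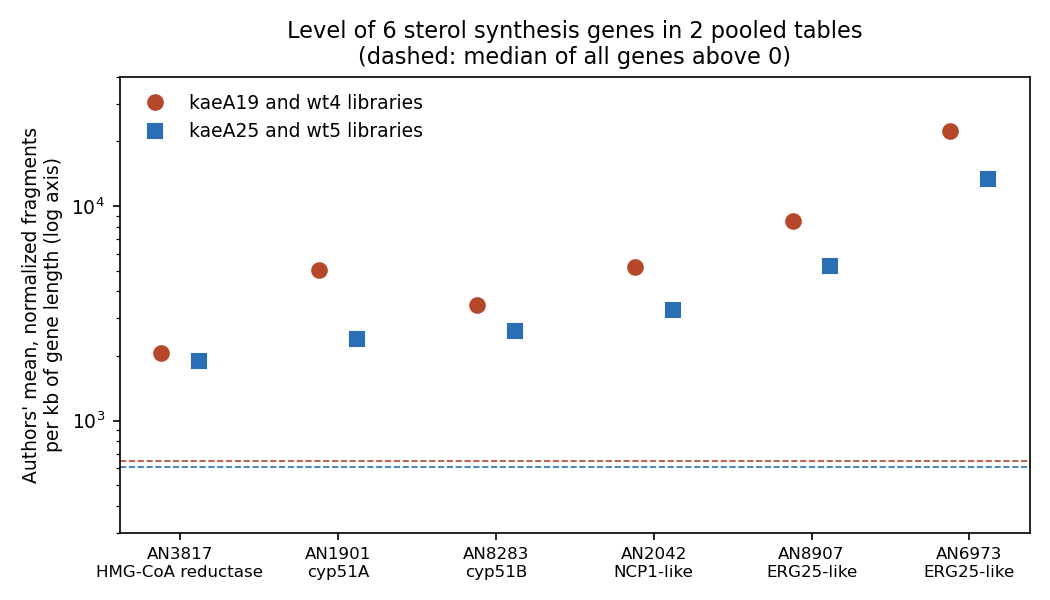
Authors' mean in normalized fragments per kb of RefSeq gene length (log axis) for the 6 sterol synthesis genes, with circles for the kaeA19 and wt4 libraries and squares for the kaeA25 and wt5 libraries; each point is 1 pooled value without an error. All points lie above the median of all genes with a length (dashed lines, 646 and 608 per kb), and the circle is the higher of the points for each gene.

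To set the levels of different genes side by side, the means were then divided by gene length in RefSeq, which spans introns. AN6973 came first in both tables, with 22351 normalized fragments per kb in the kaeA19 and wt4 libraries and 13412 in the kaeA25 and wt5 libraries. AN8907 followed at 8483 and 5227 per kb, and AN2042 at 5196 and 3290 per kb, in the same order of tables. AN3817 was the lowest of the 6 in each table, at 2055 per kb in the kaeA19 and wt4 libraries and 1886 in the kaeA25 and wt5 libraries. Even so it stood over the median gene, at 646 and 608 per kb. In the kaeA19 and wt4 libraries AN2042 was only 1.04 times as high per kb as AN1901, which gives no order between these genes.

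In the kaeA19 and wt4 libraries cyp51A and cyp51B stood at 5015 and 3459 normalized fragments per kb, a ratio of cyp51B to cyp51A of 0.690. In the kaeA25 and wt5 libraries cyp51A and cyp51B stood at 2413 and 2608 per kb, a ratio of 1.08. Neither ratio could be set against a spread over libraries, so neither gives an order of these genes. Without division by length the ratios were 0.849 and 1.33. The ratio of the ERG25-like genes, in contrast, was nearly equal in both tables. AN6973 exceeded AN8907 by 2.64 times per kb in the kaeA19 and wt4 libraries and by 2.57 times in the kaeA25 and wt5 libraries. Because both genes of a pair come from the same libraries, these ratios do not depend on the scaling between tables. Where copies are near-identical, the counting could split reads between them, and how alike these copies are was not analysed here. No RefSeq gene overlaps any of the 6 genes.

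The tables were normalized separately, so for a comparison between them the median ratio over the 6438 genes with a mean of at least 100 in both tables was set to 0 on the log2 scale. This moved every ratio by 0.05. On this scale all 6 genes had a higher mean in the kaeA19 and wt4 table than in the kaeA25 and wt5 table, while by construction 50% of all genes did. The log2 ratio was 1.01 for cyp51A, 0.69 for AN6973, 0.65 for AN8907, 0.61 for AN2042, 0.36 for cyp51B and 0.08 for AN3817. The median of the 6 was 0.63, and the middle part of all genes, from the lower to the upper quartile, ran from -0.18 to 0.19. Of the 6 genes, 5 lay above the upper quartile and AN3817 lay within the quartiles. Over all 6438 genes, 858 had a higher ratio than cyp51B, the lowest of these 5, and 2513 a higher one than AN3817. The 6 genes were chosen with earlier results of these data known, so these counts measure no enrichment.

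Only cyp51A was over 2-fold higher, at 2.01-fold, which lies at the threshold. Over all genes, 2.86% were over 2-fold higher in the kaeA19 and wt4 table and 2.03% over 2-fold lower, and 178 of the 6438 genes had a higher ratio than cyp51A. Over 1.5-fold, 4 of the 6 genes were higher in the kaeA19 and wt4 table, namely cyp51A, AN6973 (1.61-fold), AN8907 (1.57-fold) and AN2042 (1.53-fold). Over all genes 6.91% passed this mark upward and 5.53% downward, and 0 of the 6 genes passed it downward. These shares describe the tables, and the 6 genes are not independent draws from them. As the 6 were chosen with earlier results of these data known, their counts cannot be weighed against these shares. A ratio between tables mixes the effect of either kaeA allele, the marker differences between the strain pairs and any difference between the experiments, which the means alone do not separate.

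**Figure D2:**
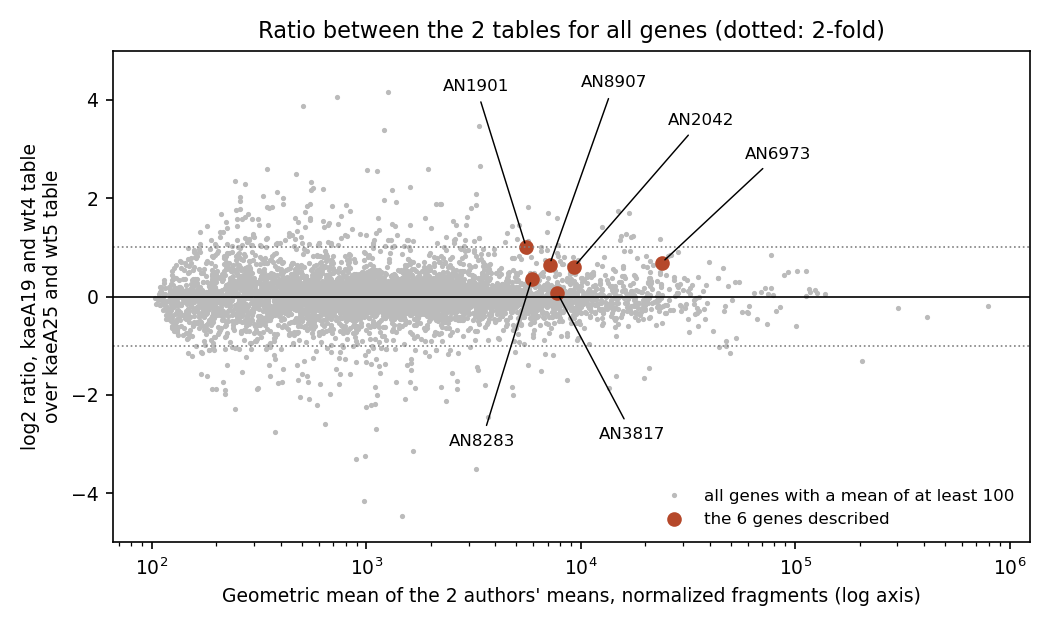
The log2 ratio of the authors' means, kaeA19 and wt4 table over kaeA25 and wt5 table with the median of all genes set to 0, against the geometric mean of both means in normalized fragments (log axis), for the 6438 genes with a mean of at least 100 (grey) and the 6 sterol genes (red). The 6 genes lie above 0, from 0.08 for AN3817 to 1.01 for AN1901 at the dotted 2-fold line.

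The 6 genes were then set beside 7 others of the path. Several genes of the resulting list were taken from the annotation of genes that the study had selected on these samples. The list is thus neither a complete nor an independent sample of the path. Ordered by step, the list was divided into an early and a late part after the values were seen. No difference between these parts was tested, and none could be told apart from the way the genes were selected. Of the 3 genes that act before squalene, HMG-CoA synthase (AN4923, erg13) stood at -0.50 and AN8012 (erg20, for farnesyl diphosphate synthesis) at -0.32 on the log2 scale, and AN3817 at 0.08. AN4923 had a mean of 8381 in the kaeA19 and wt4 libraries and 11488 in the kaeA25 and wt5 libraries, and AN8012 had 9041 and 10893 in these. Thus 2 of the 3 early genes were lower in the kaeA19 and wt4 table, as were 50% of all genes by construction.

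Of the 10 genes of the late part, 9 had a centred log2 ratio above 0, where by construction 50% of all genes did. The remaining gene, AN0949, lay near 0 on either side depending on the scaling. Of these 9, 5 were already described above as higher, so the count partly repeats that result. The late part was also set off after the values were seen, so its count cannot be weighed against the 50%. AN2042, whose relative in yeast passes electrons to Cyp51 rather than altering the sterol itself, was counted with the late part. The others above 0 were the C-14 sterol reductase gene AN4094 (erg24B, 0.89) and the C-8 sterol isomerase gene AN0451 (erg2, 1.16). With them were AN3638 (1.64) and AN6506 (0.95), both related to the C-5 desaturase gene ERG3 of yeast. AN0451 had a mean of 7672 in the kaeA19 and wt4 libraries and 3318 in the kaeA25 and wt5 libraries. AN3638 was less abundant, at 1367 in the kaeA19 and wt4 libraries and 424 in the kaeA25 and wt5 libraries. AN0451 and AN3638 thus joined cyp51A as the list genes past 2-fold, all upward. Over all genes, 2.86% were over 2-fold higher and 2.03% over 2-fold lower. Several list genes were selected on these samples, so the list cannot be weighed against these shares. The weakly expressed AN0949, a relative of ERG25, had a mean of 186 in the kaeA19 and wt4 libraries and 183 in the kaeA25 and wt5 libraries. Its log2 ratio was 0.02 as deposited and -0.02 after centring.

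**Figure D3:**
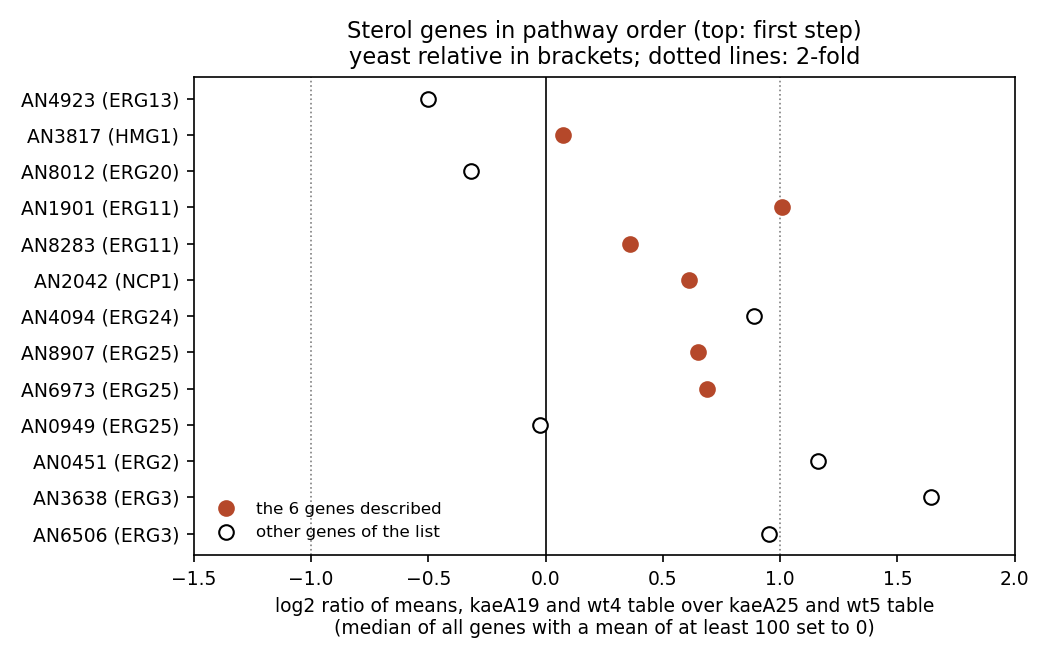
The log2 ratio of the authors' means, kaeA19 and wt4 table over kaeA25 and wt5 table with the median of all genes set to 0, for 13 sterol genes in the order of the path from top to bottom, with filled points for the 6 genes described. The 3 genes above AN1901 lie between -0.50 and 0.08. Of the 10 genes from AN1901 down all but AN0949, at -0.02, lie to the right of 0 after centring (AN0949 lies at 0.02 as deposited). By construction 50% of all genes lie to the right of 0, and the 2 parts were divided after the values were seen.

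The genes were not clustered on the genome. In RefSeq, AN1901, AN2042 and AN8907 lie on chromosome VII, AN8283 and AN3817 on chromosome II and AN6973 on chromosome IV. The nearest of the 6 to each other, AN1901 and AN2042, have 152 genes between them.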

How the data were processed

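The deposited data were 2 tables, 1 per mutant and its control. According to the study's methods, TopHat 2 with Bowtie2 placed the read pairs on the FGSC A4 genome from AspGD, pairs oriented wrongly were dropped, and ShortRead counted fragments for each gene. No source used here says if the strand was used. The authors' mean is a signal, by its column name the mean, over the libraries of a comparison, of fragment counts scaled by library size. The submitters' processing notes and the methods name edgeR, whereas the column names are those of a DESeq2 table. The other 5 columns of each table hold the authors' own comparison (fold change, its standard error, statistic, p-value, adjusted p-value) and were not used, so mutant and control were not compared here. No count per library was used, and no test was run on the means.

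Computed here, with Python 3.11.15, numpy 2.4.6, pandas 2.3.3 and matplotlib 3.10.9, were ranks, levels per kb, ratios between genes and log2 ratios between the tables. The ratios were centred on the median of the genes with a mean of at least 100 in both tables. The centring was checked on simulated data without noise, which tests the arithmetic only and not a ratio near the 2-fold mark. Gene lengths came from RefSeq (ASM1142v1), matched by locus tag for 7332 of 7729 genes. They replaced the planned coding length, and the planned alignment of proteins was not run. No sequence is shown. The 6 genes, and the list of 13 sterol genes, were chosen with earlier results of these data known. All 6 genes and all 13 list genes are named. The alternatives were other scalings, filters, a pseudocount of 10, a fold threshold of 1.5 and no division by length.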

Additional observations from a re-analysis of the deposited data

How the results depend on the processing

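All 6 genes kept a higher mean in the kaeA19 and wt4 table under each scaling, filter and pseudocount tried. The log2 ratio of AN3817 ran from 0.08 to 0.12 and that of cyp51A from 1.01 to 1.06 over these settings, so cyp51A was the only one of the 6 past 2-fold in each, although it lies close to that mark. A mean of at least 1000 in both tables, chosen after seeing the data, left 3485 genes, of which 1.55% were over 2-fold higher. With a fold threshold of 1.5, the genes past it numbered 4 of the 6 and 8 of the 13 list genes, against 1 and 3 past 2-fold. All of these were higher in the kaeA19 and wt4 table. Over all genes, 6.91% were over 1.5-fold higher and 5.53% lower, against 2.86% and 2.03% at 2-fold. The 6 genes were chosen with earlier results of these data known. Several list genes were also selected on these samples, so the counts do not measure an enrichment. With a mean of at least 1000 in both tables, 2 list genes were past 2-fold, since AN3638 dropped out. AN0949, near 0, changed sign with the scaling (0.02 as deposited, -0.02 after centring). Without division by length, the ratio of cyp51B to cyp51A was 0.849 in the kaeA19 and wt4 libraries and 1.33 in the kaeA25 and wt5 libraries, and that of AN6973 to AN8907 was 3.38 and 3.29, since the genes of a pair differ in length. No paired analysis was possible because the means pool the libraries of a comparison, and for the same reason no replicate could be left out. Depth per library was not used, so no limit of detection is given.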
